A study of Homo sapiens with 6 samples.

Results

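The EGF-family ligands, their ERBB receptors and the receptor inhibitor ERRFI1 were examined in RNA-sequencing of 12Z, an immortalized line of epithelial cells taken from endometriosis. The gene group was fixed by name and holds 10 of the 60660 genes counted, namely the ligands HBEGF, AREG, EREG, TGFA, BTC and NRG1, the receptors EGFR, ERBB2 and ERBB3, and ERRFI1. There were 3 control libraries, whose cells had received a non-targeting siRNA, and 3 knockdown libraries, whose cells had received 10 nM of siRNA LINC01133a, which targets the long noncoding RNA LINC01133, and all cells were lysed 72 h after transfection with Lipofectamine RNAiMAX. The comparison asked which ligands and receptors differed between knockdown and control cells, and whether the ligands differed in another way than the receptors. These libraries come from a single targeting siRNA and a single cell line, so an effect of the oligo and an effect of losing LINC01133 cannot be told apart. The study describes the replicates as biological, while the labels do not say which cultures they came from.

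EGF-family ligands are made as membrane-anchored precursors that are cut free by metalloproteases of the ADAM family, and they act on the cell that makes them or on its neighbours. HBEGF binds EGFR and ERBB4, AREG and TGFA bind EGFR, EREG and BTC bind EGFR and ERBB4, and the neuregulin NRG1 binds ERBB3 and ERBB4. ERBB2 has no known ligand and pairs with the other receptors, and ERBB3 has little kinase activity of its own. ERRFI1 (also called MIG6) is induced by receptor signaling and binds and inhibits EGFR. In the endometrium HBEGF is best known for its part in embryo implantation.

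Since an siRNA can also act on transcripts that match its seed, positions 2 to 8 of a strand, both strands of siRNA LINC01133a are shown, 5′ to 3′, with the seed in capitals.
Guide (antisense) strand: uCCAUUCUcagguaacuuc
Passenger (sense) strand: gAAGUUACcugagaaugga
The letters searched in the 3′ UTRs, on the transcript's own strand, were AGAATGG for the guide and GTAACTT for the passenger strand, and an 8-base match has an A after them. Among 12514 tested genes with an annotated 3′ UTR, 17.1% held the 7-base guide match and 13.6% the 7-base passenger match, while 5.78% and 3.36% held the 8-base match. No guide match was found in the 3′ UTR of HBEGF, AREG, EREG, BTC, EGFR, ERBB3 or ERRFI1. TGFA, NRG1 and ERBB2 each held 1 guide match of 7 bases. EGFR held 2 passenger matches, 1 of them of 8 bases, and NRG1 and EREG each held 1, that of EREG being of 8 bases.

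The member sites in ERBB2, TGFA and EGFR, together with those of ERBB4, PIK3CA, NRG2 and CD9, which are described further on, are given as 22 bases of GRCh38 on the transcript's strand, with the matched letters in capitals. Only the guide site of PIK3CA, the site of CD9 and the first site of EGFR are followed by an A, which makes them 8-base matches.
ERBB2, guide, chr17:39728564-39728585, plus strand: acccagggggAGAATGGgtgtt
TGFA, guide, chr2:70448085-70448106, minus strand: agagatgggcAGAATGGcccta
ERBB4, guide, chr2:211383041-211383062, minus strand: ctagcaagtaAGAATGGccaac
PIK3CA, guide, chr3:179237237-179237258, plus strand: ttttaaaagaAGAATGGaattt
EGFR, passenger, chr7:55208045-55208066, plus strand: gtttgaaacaGTAACTTaataa
EGFR, passenger, chr7:55209738-55209759, plus strand: atctatttttGTAACTTtgttg
PIK3CA, passenger, chr3:179237423-179237444, plus strand: attttaatgtGTAACTTtttca
NRG2, passenger, chr5:139847348-139847369, minus strand: tggagctgggGTAACTTccagg
CD9, passenger, chr12:6238200-6238221, plus strand: taatcaagttGTAACTTatatt
A match of these letters is a description of the sequence, and whether the siRNA acted at any of them was not tested.

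The libraries held 27742562 to 37551194 counts on genes. LINC01133 itself had 813, 818 and 837 normalized counts in control libraries and 130, 131 and 138 in knockdown libraries. Normalized counts are counts scaled to a common library size with TMM factors, and they were lower by 2.63 on the log2 scale for LINC01133 (standard error 0.070, adjp = 3.5e-11 from edgeR's quasi-likelihood test). Control library 2 stood apart from the other controls, with a chi-square per gene of 11.8 and 12.8 against them, where the other replicate comparisons gave 2.21 to 3.73. The values of EGFR, NRG1, ERBB4, SPRY2 and the HBEGF to EGFR ratio are given with and without it. The labelled epithelial identity was checked with 8 epithelial markers, of which keratins 7, 8, 18 and 19 were abundant. EPCAM had only 9.33 to 22.0 and PAX8 72.1 to 86.5 normalized counts in a library. CDH1 averaged 412 normalized counts in control and 102 in knockdown libraries. The stromal genes COL3A1, COL1A1 and VIM were also abundant (125479, 87700 and 52853 normalized counts on average in controls), so the libraries hold high levels of genes of both lists. DES, also on the stromal list, had only 1.94 to 11.4 normalized counts in a library. The summed level of the epithelial list was 6201 to 6542 CPM (counts scaled to library size) in control and 3971 to 4154 in knockdown libraries, and that of the 7 stromal genes 8246 to 8880 and 7973 to 8089. The 4 endothelial genes summed to 2.47 to 2.84 and 5.50 to 6.81 CPM and the 5 leukocyte genes to 49.98 to 56.4 and 26.2 to 28.0, with CD3E at 0 in all 6 libraries. Most of each sum came from a single gene, CDH5 (mean 1.96 CPM in control and 5.38 in knockdown libraries) and CD14 (52.7 and 26.7). Their part in the results below was not tested.

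Of the 10 genes, HBEGF was the only member that was differentially expressed (DE) and higher in knockdown cells, and NRG1 the only member that was DE and lower. DE means a fold change over 1.5 with an adjp, the p adjusted by Benjamini-Hochberg over all 15155 genes tested, under 0.05. EGFR was lower and ERRFI1 higher within the fold change cutoff, and neither ERBB2 nor ERBB3 passed the test. The remaining ligands, AREG, EREG, TGFA and BTC, were at 0 to 5 counts per library and could not be tested. Among all tested genes 11.7% were DE, 5.3% higher and 6.43% lower, against 2 of the 6 tested members, 1 in each direction. In a bulk library, a change in the share of cells that make an RNA and a change of that RNA within each cell cannot be told apart.

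HBEGF (ENSG00000113070.8), heparin-binding EGF-like growth factor, is encoded on chromosome 5 at 140332843 to 140346603, minus strand (GRCh38, GENCODE annotation, as for all positions given here). It had 1298, 1254 and 1199 normalized counts in control libraries and 2420, 2511 and 2369 in knockdown libraries. Every knockdown library lay far above every control library, and the libraries within a group were close together. The mean was 1250 ± 49.5 in controls and 2433 ± 72.0 in knockdown cells (SD, n = 3 each), which is 1.95 times the control level. On the log2 scale the fold change was 0.96 (standard error 0.044, 95% confidence interval 0.87 to 1.06, adjp = 3.1e-09 from edgeR's quasi-likelihood test). HBEGF shares no exon with another annotated gene.

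NRG1 (ENSG00000157168.20), neuregulin 1, the ligand of ERBB3 and ERBB4, is encoded on chromosome 8 at 31639222 to 32855666, plus strand. Its normalized counts were 136, 152 and 118 in control libraries and 72.9, 89.3 and 63.5 in knockdown libraries. The highest knockdown library was below the lowest control library, although the spread within each group was wider than for HBEGF. The mean fell from 136 ± 17.0 to 75.3 ± 13.1 (SD, n = 3 each), to 55.5% of the control level. On the log2 scale the fold change was -0.84 (standard error 0.15, 95% confidence interval -1.16 to -0.51, adjp = 4.5e-04 from edgeR's quasi-likelihood test). The interval reaches across the fold change of 1.5, and a test against that fold change itself (glmTreat of edgeR) gave adjp = 0.29 for NRG1. Without control library 2 its log2 fold change was -0.76. Part of an NRG1 exon overlaps the gene ENSG00000286131 on the same strand, so a share of its reads could be counted incompletely.

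**Figure D1:**
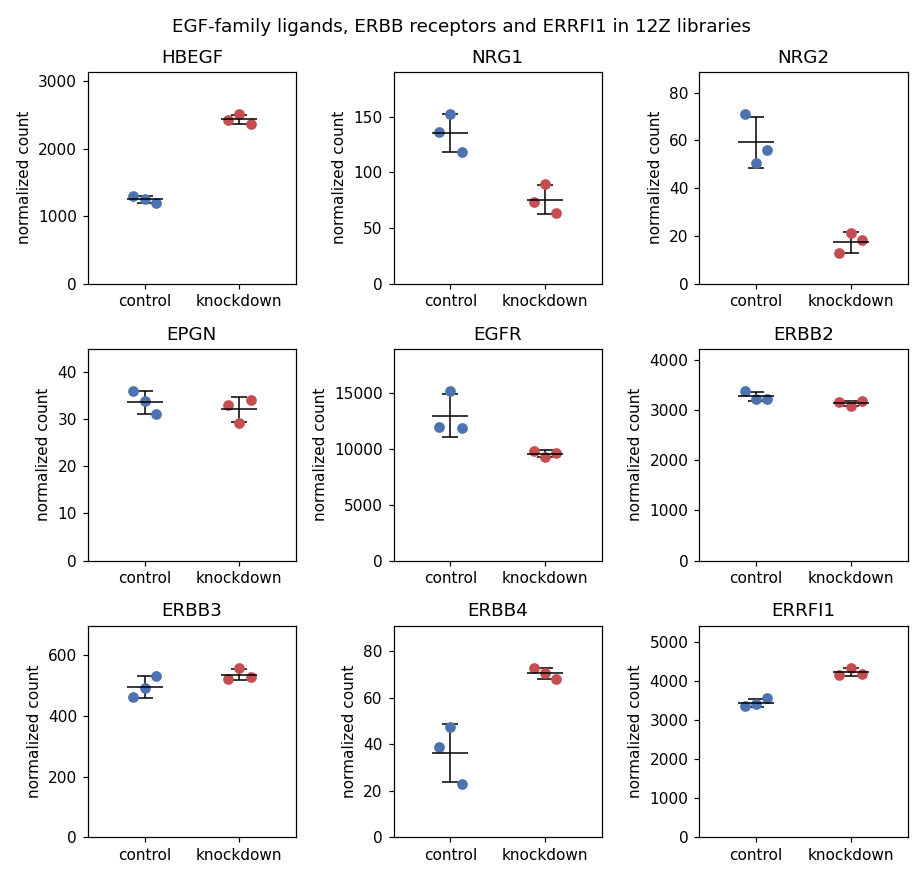
Normalized counts (vertical axes, from 0, each panel with its own scale) of the 6 tested members and of NRG2, EPGN and ERBB4 in the 3 control (blue) and 3 knockdown (red) libraries. Each point is a library, the long bar is the group mean and the whiskers are 1 SD; the knockdown points of HBEGF (2369 to 2511) lie above all controls, and those of NRG1 and NRG2 below all controls.

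The other 4 ligands of the group were close to absent in these cells. AREG, amphiregulin, had raw counts of 3, 3 and 1 in the control and 5, 4 and 4 in knockdown libraries. BTC, betacellulin, had 2, 0 and 0 counts in control and 3 in each of the knockdown libraries. Both sums were higher in knockdown cells, 13 against 7 counts for AREG and 9 against 2 for BTC, but these sums rest on a few reads and were not tested. EREG, epiregulin, had counts of 1, 0 and 1 in control and 0, 1 and 1 in knockdown libraries. TGFA, transforming growth factor alpha, had 0, 0 and 2 counts in control and 0, 0 and 1 in knockdown libraries. AREG had at least 1 count in every library. A count of 0 allows up to 3 counts in a library of this depth, so a low level remains possible where a library had 0 counts. This limit covers counting error only. AREG (74445136 to 74455005), EREG (74365145 to 74388749) and BTC (74744759 to 74794523) lie together with EPGN on chromosome 4 within 486054 bases, and TGFA is on chromosome 2 from 70447284 to 70554193.

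EGFR (ENSG00000146648.19), the receptor of HBEGF, is encoded on chromosome 7 at 55019017 to 55211628, plus strand. It had 11976, 15196 and 11842 normalized counts in control libraries and 9838, 9252 and 9651 in knockdown libraries. The groups did not overlap, and control library 2 was far above the other controls. The mean was 13005 ± 1899 in controls and 9581 ± 299 in knockdown cells (SD, n = 3 each), or 73.7% of the control level. On the log2 scale the fold change was -0.44 (standard error 0.075, 95% confidence interval -0.60 to -0.28, adjp = 3.2e-04 from edgeR's quasi-likelihood test). Without control library 2 it was -0.32, with adjp = 2.5e-07 from the same test. EGFR thus passed the test and stayed under the fold change cutoff with and without that library. The antisense gene EGFR-AS1 overlaps it on the other strand.

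ERBB2 (ENSG00000141736.14), on chromosome 17 at 39687914 to 39730426, plus strand, had 3382, 3223 and 3220 normalized counts in control and 3160, 3084 and 3180 in knockdown libraries. The groups were next to each other without overlap, with means of 3275 ± 93.0 and 3141 ± 50.7 (SD, n = 3 each). Its log2 fold change of -0.061 (standard error 0.038, 95% confidence interval -0.14 to 0.021) did not pass the test (adjp = 0.21 from edgeR's quasi-likelihood test), and scaling by library size alone gave 0.0019, so no direction can be given.

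ERBB3 (ENSG00000065361.16), the NRG1 receptor, is encoded on chromosome 12 at 56076799 to 56103505, plus strand. It had 461, 492 and 532 normalized counts in control and 523, 558 and 528 in knockdown libraries. The groups overlapped, since the highest control library lay above 2 of the knockdown libraries. The means were 495 ± 35.4 and 536 ± 19.2 (SD, n = 3 each), and the log2 fold change of 0.12 (standard error 0.069, 95% confidence interval -0.032 to 0.27) did not pass the test (adjp = 0.18 from edgeR's quasi-likelihood test). Scaling by library size alone gave 0.18 with adjp = 0.048. ERBB3 shares exon sequence on its strand with ENSG00000257411.

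ERRFI1 (ENSG00000116285.13), the feedback inhibitor of EGFR, is encoded on chromosome 1 at 8004404 to 8026309, minus strand. It had 3361, 3411 and 3563 normalized counts in control and 4149, 4343 and 4190 in knockdown libraries. All knockdown libraries were above all controls, with means of 3445 ± 105 and 4227 ± 102 (SD, n = 3 each). The level in knockdown cells was 1.23 times the control level, or 0.30 on the log2 scale (standard error 0.039, 95% confidence interval 0.21 to 0.38, adjp = 3.4e-05 from edgeR's quasi-likelihood test), under the fold change cutoff.

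**Figure D2:**
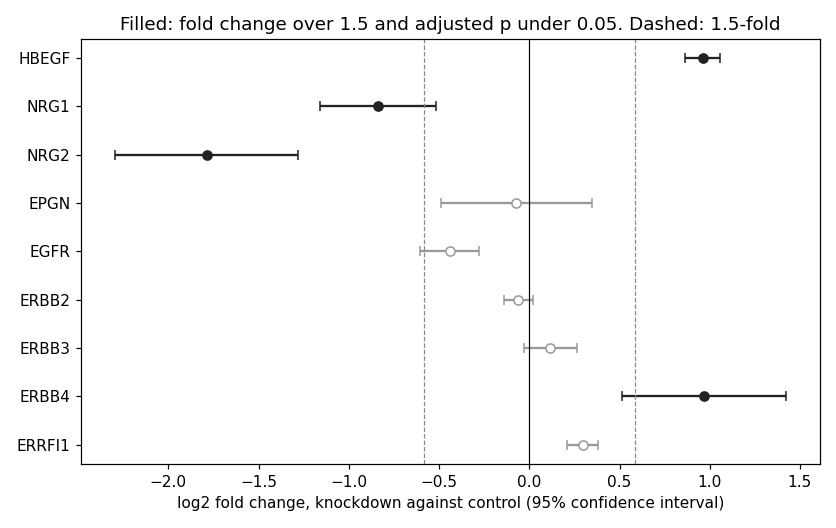
Log2 fold change of knockdown against control (horizontal axis) with its 95% confidence interval for the 6 tested members and for NRG2, EPGN and ERBB4, with filled points for DE genes and dashed lines at a fold change of 1.5. HBEGF at 0.96 and ERBB4 at 0.97 lie to the right, NRG2 at -1.79 and NRG1 at -0.84 to the left, and the intervals of ERBB2, ERBB3 and EPGN cross 0.

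Counted without the fold change cutoff, 4 of the 6 tested members had an adjp under 0.05, HBEGF and ERRFI1 higher and NRG1 and EGFR lower. Over all tested genes this share was 48.3%, with 23.3% higher and 25% lower. The control and knockdown libraries did not overlap for 5 of the 6 members, ERBB3 being the exception, against 57.3% of all tested genes. The median log2 fold change of the 6 members was 0.028, and that of all tested genes 0.0032. With 6 tested genes, these shares say nothing particular about the group, and its members are described by their own values. HBEGF and NRG1 moved in opposite directions, and none of the 3 receptors was DE.

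Ratios between members were formed within each library, which removes the scaling between libraries. The HBEGF count was 10.8%, 8.25% and 10.1% of the EGFR count in control libraries and 24.6%, 27.1% and 24.5% in knockdown libraries. The ratio in knockdown cells was 2.63 times that in controls, a difference of 1.39 on the log2 scale (standard error 0.13, n = 3 each). All knockdown libraries were above all controls, and the difference was 1.28 without control library 2. With 3 libraries against 3, the exact permutation test, two-sided, gave p = 0.1 for this and for each of the other 4 ratios, which is the smallest p it can give, and the adjusted p over the 5 ratios was 0.1 as well.

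For NRG1 and its receptors the ratios were lower in knockdown cells. NRG1 counts were 29.6%, 30.9% and 22.2% of ERBB3 counts in control libraries and 13.9%, 16% and 12.0% in knockdown libraries, a difference of -0.97 on the log2 scale (standard error 0.19). Against ERBB2, the partner of ERBB3, NRG1 counts were 4.03%, 4.72% and 3.67% in control and 2.31%, 2.90% and 2.00% in knockdown libraries, a difference of -0.80 (standard error 0.19). The groups overlapped in neither ratio.

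HBEGF was also higher relative to the EGFR inhibitor. Its count was 38.6%, 36.8% and 33.7% of the ERRFI1 count in control and 58.3%, 57.8% and 56.5% in knockdown libraries, or 1.59 times the control ratio (log2 difference 0.67, standard error 0.060). Of the 5 ratios, that of the 2 tested ligands differed most, with HBEGF counts at 952%, 824% and 1015% of NRG1 counts in control and 3320%, 2811% and 3729% in knockdown libraries. This ratio in knockdown cells was 3.52 times that in controls (log2 difference 1.82, standard error 0.15), and again no library of one group reached the other.

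**Figure D3:**
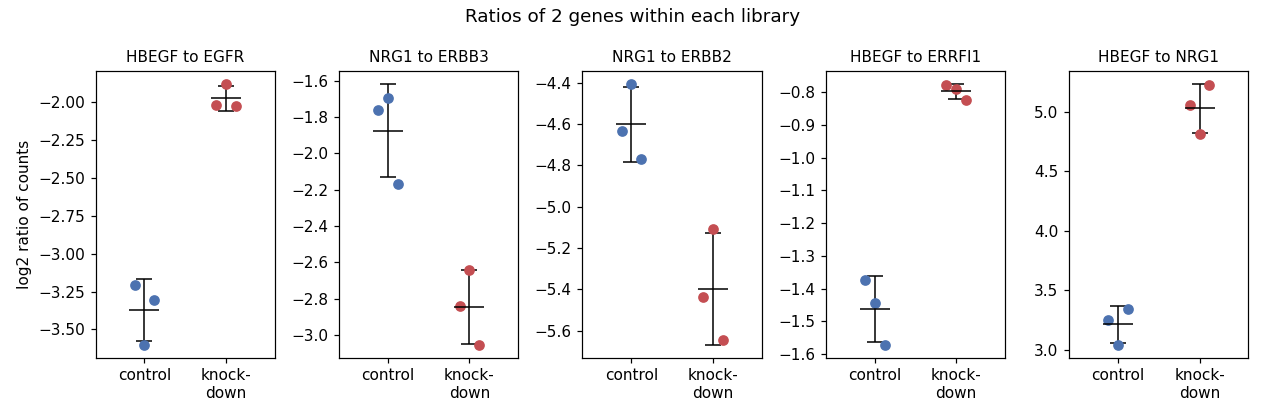
Log2 ratio of the counts of 2 genes within a library (vertical axes, each panel with its own scale that does not start at 0), with 1 point per control (blue) or knockdown (red) library, group means as long bars and whiskers of 1 SD. In every panel the groups are apart, higher in knockdown for the ratios of HBEGF to EGFR, ERRFI1 and NRG1, and lower for those of NRG1 to ERBB3 and ERBB2.

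Levels of different genes were compared as normalized CPM per kilobase of exon, with the exon length taken over all annotated transcripts. In control cells ERRFI1 (mean 25.5, range 24.8 to 26.3) and EGFR (mean 25.2, range 23.0 to 29.5) were highest, and their ranges overlapped only through control library 2, since EGFR was at 23.2 and 23.0 in the other controls. HBEGF followed at 12.9 (12.4 to 13.4), ERBB2 at 9.80 (9.64 to 10.1) and ERBB3 at 1.31 (1.22 to 1.40), and none of these ranges overlapped. NRG1 was far lower at 0.196 (0.171 to 0.220), and AREG at 0.0455, BTC at 0.00735, TGFA at 0.0043 and EREG at 0.0036 formed the bottom of the order, their ranges overlapping among themselves but for AREG with EREG and TGFA.

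In knockdown cells the order at the top was ERRFI1 at 31.3 (30.7 to 32.1), HBEGF at 25.1 (24.5 to 25.9) and EGFR at 18.6 (17.9 to 19.1), so HBEGF and EGFR had changed places. ERBB2 at 9.40 (9.23 to 9.52) and ERBB3 at 1.41 (1.38 to 1.47) kept theirs, and NRG1 was at 0.109 (0.0919 to 0.129). The order in control cells depends on the length used. With the longest annotated transcript, control cells had EGFR at 40.6, ERRFI1 at 34.4, ERBB2 at 20.5 and HBEGF at 16.4, while knockdown cells had ERRFI1 at 42.2, HBEGF at 31.9, EGFR at 29.9 and ERBB2 at 19.7. The exchange of HBEGF and EGFR was seen with both lengths, and the place of HBEGF above ERBB2 in control cells was not.

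**Figure D4:**
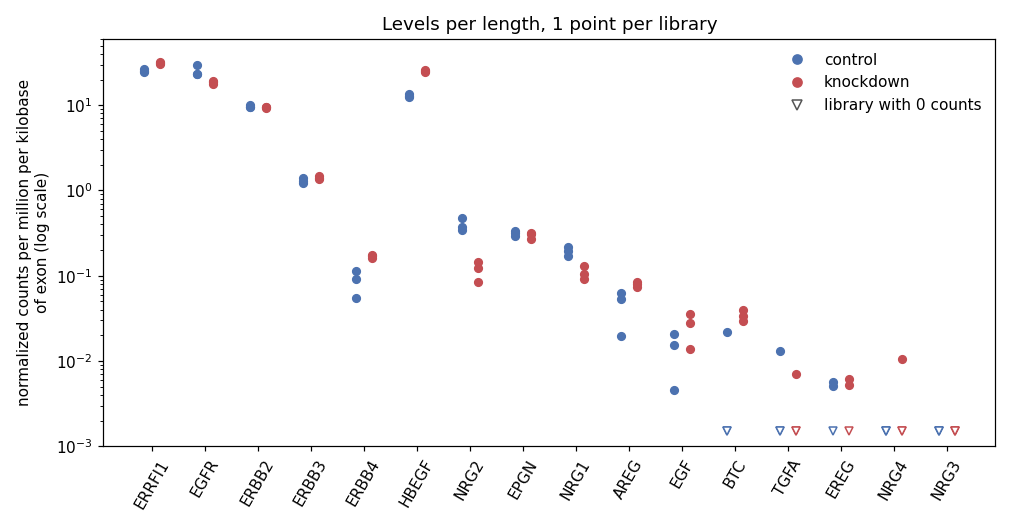
Normalized CPM per kilobase of exon (vertical axis, log scale) for the receptors, ERRFI1 and all EGF-family ligands, with 1 point per control (blue) or knockdown (red) library and open triangles at the lower edge for libraries with 0 counts. EGFR, ERRFI1, HBEGF and ERBB2 stand above 9, while AREG, EGF, BTC, TGFA, EREG, NRG3 and NRG4 stay below 0.1.

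Summed per length over HBEGF, AREG, EREG, TGFA, BTC, EGF and EPGN, the EGFR ligands were at 13.3 ± 0.553 in control and 25.6 ± 0.715 in knockdown cells (SD, n = 3 each). HBEGF made up 97.1% and 98.3% of that sum. The neuregulins summed to 0.594 ± 0.0699 in control and 0.229 ± 0.0381 in knockdown cells, of which NRG2 gave 67.0% and 51.0%. With the longest annotated transcript, NRG2 was at 0.467 in control and 0.137 in knockdown cells, and NRG1 at 0.334 and 0.186. The lead of NRG2 in knockdown cells thus depends on the length used. The 4 receptors summed to 36.4 ± 3.57 and 29.6 ± 0.666, and EGFR gave 69.2% and 62.8%.

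The family has 6 further genes, EGF, EPGN, NRG2, NRG3 and NRG4 as ligands and ERBB4 as the receptor that both HBEGF and neuregulins bind. Of the 3 that could be tested, NRG2 was DE and lower, ERBB4 was DE and higher, and EPGN did not pass the test. The share of DE genes over all tested genes was 11.7% (5.3% higher and 6.43% lower). With 3 tested genes, a comparison with that share says nothing particular about the family. NRG2 had 71.0, 50.7 and 56.0 normalized counts in control and 12.7, 21.4 and 18.2 in knockdown libraries, with no overlap. Its mean fell from 59.2 ± 10.5 to 17.4 ± 4.37 (SD, n = 3 each), which is -1.79 on the log2 scale (standard error 0.24, adjp = 3.5e-05 from edgeR's quasi-likelihood test). Its 3′ UTR holds the 7-base passenger match printed above. Both expressed neuregulins, NRG1 and NRG2, were thus lower in knockdown cells.

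ERBB4 had 38.8, 47.3 and 22.8 normalized counts in control and 72.9, 70.9 and 68.1 in knockdown libraries. The controls were spread widely, and all lay below the knockdown libraries. The mean was 36.3 ± 12.4 and 70.6 ± 2.42 (SD, n = 3 each), and the fold change on the log2 scale was 0.97 (standard error 0.21, adjp = 0.0019 from edgeR's quasi-likelihood test), which ranged from 0.73 to 1.18 with each library left out in turn. ERBB4 was the least abundant receptor, at 0.0862 per length in control and 0.168 in knockdown cells, against 25.2 and 18.6 for EGFR. The 3′ UTR of ERBB4 holds the 7-base guide match printed above. EPGN, epigen, had 33.6 ± 2.45 and 32.1 ± 2.60 normalized counts (SD, n = 3 each; log2 fold change -0.072, standard error 0.19, adjp = 0.79 from edgeR's quasi-likelihood test). EGF had raw counts of 4, 1 and 5 in control and 4, 9 and 6 in knockdown libraries, NRG4 had 2 counts in knockdown library 1 and none elsewhere, and NRG3 had none.

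NRG2 and HBEGF both lie on the minus strand of chromosome 5, with 289543 bases between the end of NRG2 at 140043299 and the start of HBEGF at 140332843, and they moved in opposite directions. The stretch between them, looked at after the values of both genes were known, holds 7 annotated genes. Of these, 6 were tested and none was DE, against 11.7% of all tested genes. Their log2 fold changes were -0.22 for MALINC1, 0.10 for PURA, 0.092 for IGIP, 0.28 for ENSG00000254363, -0.28 for CYSTM1 and 0.072 for PFDN1. Only CYSTM1 had an adjp under 0.05 (adjp = 3.9e-04 from edgeR's quasi-likelihood test), against 48.3% of all tested genes. With 6 tested genes, these shares say nothing particular about the stretch.

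The genes around the receptors were described with 4 further lists, on ligand shedding, adaptors and kinases, receptor turnover, and ERK-responsive genes. With the 6 family genes they make 73 genes, of which 69 were tested, 3 were DE and higher and 3 were DE and lower. These are 8.70% of the tested genes of the lists, against 11.7% of all tested genes (5.3% higher and 6.43% lower). Their median log2 fold change was -0.072 against 0.0032 over all tested genes. At an adjp under 0.05, 16 were higher, 24 were lower and 29 did not pass, next to the 48.3% of all tested genes that passed.

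All 11 genes for ligand shedding and for partners of the HBEGF precursor were tested, and 1 was DE, against 11.7% of all tested genes. CD9, a tetraspanin that associates with the HBEGF precursor at the membrane, had 3810, 3681 and 3654 normalized counts in control and 2240, 2282 and 2294 in knockdown libraries, with no overlap. It fell from 3715 ± 83.5 to 2272 ± 28.6 (SD, n = 3 each), which is -0.71 on the log2 scale (standard error 0.037, adjp = 1.1e-08 from edgeR's quasi-likelihood test). Its 3′ UTR holds the 8-base passenger match printed above. Of the other tested members and listed genes, EGFR, SOCS4, STAM, EPS15, ETV5 and MYC hold such a match. Their log2 fold changes were -0.44, 0.084, -0.086, 0.16, -0.29 and -0.031. In the shedding list, another 5 genes were lower and 1 was higher at an adjp under 0.05 but within the fold change cutoff, and 4 did not pass. Thus 63.6% of the list passed at that adjp against 48.3% of all tested genes. The list had a median log2 fold change of -0.13. Release of the HBEGF protein was not measured by these libraries.

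Among the 24 adaptors and downstream kinases, PIK3CA alone was DE, while scaling by library size alone gave 2 DE genes. Over all tested genes 11.7% were DE. PIK3CA, the catalytic alpha subunit of PI 3-kinase, had 2354, 2630 and 2363 normalized counts in control and 1280, 1334 and 1349 in knockdown libraries. It fell from 2449 ± 157 to 1321 ± 36.3 (SD, n = 3 each), which is -0.89 on the log2 scale (standard error 0.050, adjp = 1.8e-08 from edgeR's quasi-likelihood test). Its 3′ UTR holds the 8-base guide match and the 7-base passenger match printed above. PTPN11, DUSP6 and USP8 of the lists also hold an 8-base guide match, with log2 fold changes of 0.10, 0.026 and -0.24. Whether the siRNA acted at any of these sites was not tested. At an adjp under 0.05 but within the fold change cutoff, 6 genes of the adaptor and kinase list were higher and 7 were lower, while 10 did not pass. With PIK3CA, 58.3% of the list passed at that adjp, against 48.3% of all tested genes. The log2 fold changes ran from -0.89 to 0.56 with a median of -0.0039.

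The list of receptor turnover and inhibition held 15 genes, of which 14 were tested and CBLC had no counts. None was DE, against 11.7% of all tested genes. At an adjp under 0.05 there were 4 higher and 3 lower genes, or 50% of the list against 48.3% of all tested genes, with log2 fold changes from -0.39 to 0.42 and a median of -0.010. ERRFI1, counted among the members and not in this list, lay within this range at 0.30.

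Of 17 ERK-responsive genes, which are commonly induced when the ERK pathway is active, 2 were DE and both were higher, a share near the 11.7% of all tested genes. EGR1, an early-response transcription factor, rose from 246 ± 21.8 normalized counts to 497 ± 35.1 (SD, n = 3 each), which is 1.01 on the log2 scale (standard error 0.085, adjp = 6.6e-07 from edgeR's quasi-likelihood test). SPRY2, an inhibitor of receptor tyrosine kinase signaling, rose from 711 ± 65.5 to 1103 ± 36.9 (SD, n = 3 each), which is 0.63 on the log2 scale (standard error 0.063, adjp = 3.4e-06 from the same test), and without control library 2 its log2 fold change of 0.58 was under the cutoff. The median log2 fold change of the list was -0.14. Among the 15 genes that were not DE, 2 were higher and 6 were lower at an adjp under 0.05, and 7 did not pass. In all, 10 of the 17 genes passed at that adjp, against 48.3% of all tested genes.

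**Figure D5:**
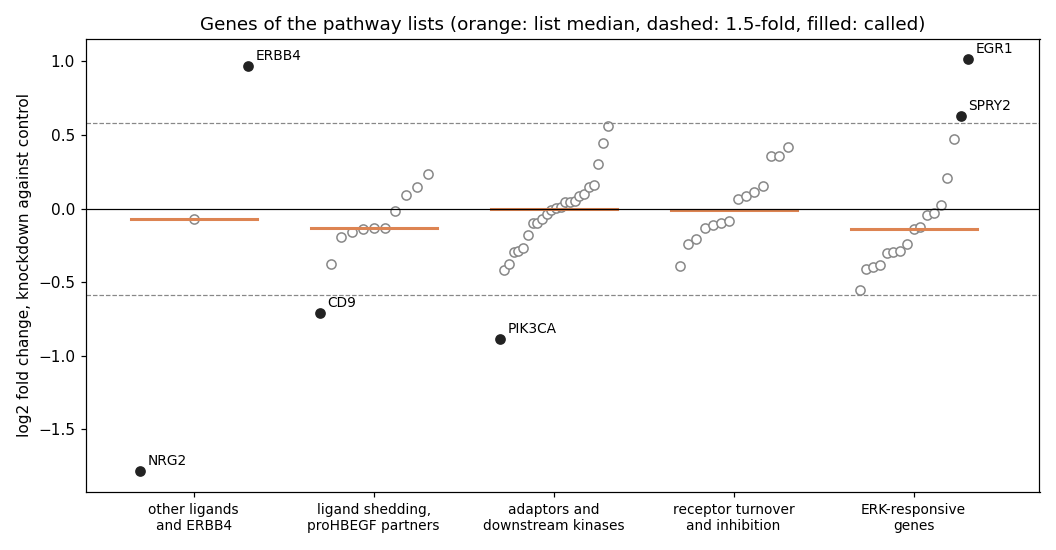
Log2 fold change of knockdown against control (vertical axis) for each tested gene of the 5 pathway lists, with filled and named points for DE genes, orange bars for the list medians and dashed lines at a fold change of 1.5. The medians lie between -0.14 and -0.0039, and single genes, NRG2, ERBB4, CD9, PIK3CA, EGR1 and SPRY2, stand outside the dashed lines.

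The genes whose log2 CPM followed HBEGF most closely over the 6 libraries were LRRC8A, SLC25A4 and JDP2, with Pearson's r of 0.9995, 0.9994 and 0.9994, taken among 11177 genes whose normalized counts averaged at least 100. Their log2 fold changes were 0.40, 0.64 and 1.27. Such a likeness is mostly the difference between the 2 groups, and 1186 of these genes had an r over 0.95.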

How the data were processed

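Alignment by the authors used STAR 2.7.6a, GRCh38.p13 and GENCODE v36, and only uniquely mapped reads were kept. The deposited values are STAR's raw counts per gene, without normalization. Each library has 3 count columns, and the column that held 93.9% to 94.1% of the stranded counts was used, since the column of the original analysis is not given in the sources used here. As the library kit, NEB poly-A is named in the labels and TruSeq in the paper. Reads without a feature (4.57% to 5.45%) were left out.

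Genes were filtered with filterByExpr (minimum count 10), scaled with TMM factors of 0.968 to 0.984 (control) and 1.02 to 1.03 (knockdown), and compared in edgeR 4.0.16 under R 4.3.3 (glmQLFit and glmQLFTest, the quasi-likelihood test), where the condition was the single term. DE genes had a fold change over 1.5 and an adjusted p under 0.05, the study's cutoffs. The 3 libraries per group limit the precision. Within-library ratios were compared with an exact permutation test. The computation was tested on simulated data.

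Lengths, positions and 3′ UTRs came from GENCODE v44 on GRCh38, and gene symbols were matched for 60419 of 60660 identifiers. The siRNA sequences are those listed in the study's supplement. Named genes were the members, the other family genes, the target, the 2 highest and 2 lowest DE genes of each other list, the 3 genes most like HBEGF, the marker genes and, as stated there, the genes between NRG2 and HBEGF. The members and lists were chosen with earlier results of these data known. Alternatives were DESeq2 1.42.0, other scalings and filters, the unstranded column, a replicate block, a test without or against the fold change cutoff, other lengths, and each library left out in turn.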

Additional observations from a re-analysis of the deposited data

How the results depend on the processing

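HBEGF stayed DE in all 14 alternatives, with log2 fold changes of 0.93 to 1.02, and NRG1 in 13 of 14. EGFR and ERRFI1 had an adjusted p under 0.05 in all 13 alternatives run for each. The DE count over all genes was 1778, and 1446 with DESeq2, 1963 without a filter, 7315 without the fold change cutoff and 1641 to 1815 with each library left out. Among the members, 2 genes were DE, with every library left out in turn too (2 to 2), against 4 without the fold change cutoff and 1, HBEGF, when tested against a fold change of 1.5 (glmTreat), where NRG1 had an adjusted p of 0.29. Over the pathway lists the count was 6, and 5 to 7 with each library left out. The difference of the HBEGF to EGFR ratio ranged from 1.28 (without control library 2) to 1.47 on the log2 scale. EGFR had 1.95 times the HBEGF level per length in controls, 2.48 times with the longest annotated transcript, and 1.79 to 2.06 times with each control library left out, an alternative chosen after seeing the data. With library size alone as scaling, 55.9% of DE genes were higher against 45.2%, the median of all genes moved to 0.065, and ERBB2 turned to 0.0019. The labels do not say whether the replicate numbers pair the libraries. The deviations of same-numbered libraries correlated at -0.015, 0.0049 and 0.057, and those of differently numbered libraries at -0.066 to 0.071. Such correlations cannot settle whether the libraries were paired. With the replicate number as a block, 1747 genes, the same number of members (2) and 6 pathway genes were DE, and the ratio difference was 1.39. The causes were not tested. Ligands at a few counts per library are limited by depth.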
